A study of Mus musculus with 43 samples.

Results

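Skeletal muscle is described here by the genes that set it apart from the brain, liver and white adipose tissue (WAT) of the same study, and by how far those genes kept their level over 4 groups of mice. A table entry, which is a gene or a set of overlapping genes, was taken as muscle enriched when its mean over the 4 muscle groups was at least 1 FPKM and at least 5 times the highest of the 3 other tissue means. FPKM stands for fragments scaled to transcript length and to the total of mapped fragments, so that levels of different genes can be compared. By this rule 689 of 42349 entries were muscle enriched, out of 13925 that reached a mean of 1 FPKM in muscle. Of these, 386 were protein coding entries. The ratio between tissues chose the entries, so it is given as a description and carries no test.

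The mice were females of 15 months of age, of 2 genotypes and 2 feeding regimes. WT mice were Irs1+/+ and KO mice were Irs1-/-, a global knockout of insulin receptor substrate 1. AL mice fed ad libitum, and DR mice received 30% less food for 12 months, a restriction begun in steps at 10 weeks of age. All mice ate the same chow, and the groups are written WT_AL, WT_DR, KO_AL and KO_DR. The labels give 2 muscle libraries for WT_AL and 3 for each other group, which is 11 of the 43 libraries. The WAT was inguinal, and the sources used here do not give the muscle that was taken. The deposited table holds 1 value per group with the authors' 95% confidence interval, so every value below is a group estimate with that interval and not a mean of single mice. The depth of each library is unknown. Where 4 values are given in a row they are FPKM in the order WT_AL, WT_DR, KO_AL, KO_DR.

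Skeletal muscle fibres are long multinucleate cells packed with sarcomeres, in which thick filaments of myosin slide along thin filaments of actin. An action potential at the neuromuscular junction spreads over the fibre membrane and releases calcium from the sarcoplasmic reticulum, which frees actin from its block by troponin and tropomyosin. ATP comes from creatine phosphate, glycogen breakdown and mitochondria. Fibres are fast or slow according to which isoforms of myosin, troponin and the calcium pump they make, and the MyoD family, MEF2 and sine oculis-related homeodomain proteins drive these genes during development and in the adult.

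The sequence before the transcription start is shown for 6 muscle-enriched genes, because the letters shared by such promoters can be read beside their levels. Ckm, Mylpf, Acta1 and Myh4 were among the 10 enriched coding genes of highest level, Myog encodes a muscle regulatory factor, and Trim63 had the largest tissue ratio of the coding genes. Each line gives the 250 bases before the RefSeq start on GRCm38.p6, from 5′ to 3′ on the coding strand, with the E-box letters CANNTG (N is any base) in capitals. The windows are chr7:19410844-19411093 (plus strand) for Ckm, chr7:127211358-127211607 (plus) for Mylpf, chr8:123894776-123895025 (minus) for Acta1, chr1:134289754-134290003 (plus) for Myog, chr4:134314870-134315119 (plus) for Trim63 and chr11:67237562-67237811 (plus) for Myh4.
Ckm: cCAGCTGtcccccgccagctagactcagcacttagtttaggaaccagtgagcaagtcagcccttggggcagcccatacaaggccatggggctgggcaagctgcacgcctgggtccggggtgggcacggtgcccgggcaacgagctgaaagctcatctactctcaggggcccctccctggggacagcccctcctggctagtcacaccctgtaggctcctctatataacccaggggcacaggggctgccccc
Mylpf: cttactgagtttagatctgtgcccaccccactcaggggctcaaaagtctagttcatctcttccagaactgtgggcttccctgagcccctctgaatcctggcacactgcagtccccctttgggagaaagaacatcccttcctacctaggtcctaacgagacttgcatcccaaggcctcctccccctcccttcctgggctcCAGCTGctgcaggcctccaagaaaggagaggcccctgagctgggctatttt
Acta1: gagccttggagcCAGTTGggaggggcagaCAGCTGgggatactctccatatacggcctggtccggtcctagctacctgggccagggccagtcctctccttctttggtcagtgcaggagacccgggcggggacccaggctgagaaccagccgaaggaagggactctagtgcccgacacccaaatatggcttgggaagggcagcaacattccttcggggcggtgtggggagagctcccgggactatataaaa
Myog: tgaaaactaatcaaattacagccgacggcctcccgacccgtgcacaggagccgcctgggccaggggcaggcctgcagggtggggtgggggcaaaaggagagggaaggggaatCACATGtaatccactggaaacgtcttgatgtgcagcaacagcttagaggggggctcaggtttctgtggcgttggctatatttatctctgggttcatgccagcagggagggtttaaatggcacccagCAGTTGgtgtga
Trim63: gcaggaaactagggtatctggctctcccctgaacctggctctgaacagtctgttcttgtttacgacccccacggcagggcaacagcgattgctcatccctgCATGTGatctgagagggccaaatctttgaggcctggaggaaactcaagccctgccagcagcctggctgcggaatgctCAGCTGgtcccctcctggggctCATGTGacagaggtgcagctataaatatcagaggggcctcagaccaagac
Myh4: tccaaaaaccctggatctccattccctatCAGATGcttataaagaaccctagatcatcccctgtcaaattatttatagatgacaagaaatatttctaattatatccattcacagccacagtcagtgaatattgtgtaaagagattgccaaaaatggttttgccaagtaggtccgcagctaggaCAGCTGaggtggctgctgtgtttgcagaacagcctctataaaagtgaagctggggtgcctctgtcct

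The palindromic E-box CAGCTG, a subset of CANNTG that MyoD family proteins are known to bind, lay 249 bases before the start of Ckm, 51 before Mylpf, 221 before Acta1, 72 before Trim63 and 67 before Myh4. The Myog window held CACATG and CAGTTG. A match to the CArG box, the site of serum response factor, lay 73 bases before the start of Acta1 and 104 before Myh4, and a match to the MEF2 site lay 182 bases before Myh4. TATAAA was found 31 bases before the start of both Trim63 and Myh4 and 7 bases before that of Acta1. Myh4 held it also 213 bases before the start and, on the other strand, 179 bases before. Over all RefSeq promoter windows of this length, 66.2% held CANNTG, 13% CAGCTG, 2.92% a MEF2 match, 1.47% a CArG match and 12.4% TATAAA. The windows found for 286 of the 385 coding gene symbols held them in 73.7%, 24%, 11.3%, 4.24% and 16.1%. Among coding entries with a tissue ratio of at least 100, of which 86 of 121 had a window, the shares were 87.8%, 38.8%, 23.5%, 7.14% and 24.5%. Other coding entries expressed in muscle had 57.3%, 11.8%, 1.55%, 1.07% and 6.44%. Both strands were searched. The median GC content was 52.4% over all windows, 55.6% for the muscle-enriched genes and 60% for the other genes expressed in muscle, and its part in these shares was not tested. A match is a run of letters and not evidence of binding.

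Irs1, the targeted gene, did not follow the genotype labels in muscle. Its values were 5.72 (2.96 to 8.49) in WT_AL, 5.48 (4.09 to 6.88) in WT_DR, 6.31 (4.30 to 8.31) in KO_AL and 5.82 (3.66 to 7.99) in KO_DR. The groups labelled KO were not lower, and whether the measured transcript lies outside the deleted part of the gene could not be read from the table, so KO below means the group labelled KO. The summed markers of other cells were also uneven over the groups. The summed FPKM of 6 liver genes was 19.7, 2367, 44.9 and 103 in muscle, so that WT_DR stood apart. The sum of 5 red blood cell genes was 950, 1553, 11582 and 20283, high in both KO groups. The sum of 6 adipocyte genes was 1141, 360, 1372 and 2056, lowest in WT_DR, and the 3 Schwann cell genes gave 63.4, 15.3, 60.4 and 166. Smooth muscle genes (3) ranged from 14.2 to 48.3, fibroblast genes (3) from 26.4 to 46.4, endothelial genes (3) from 28.1 to 35.0, macrophage genes (2) from 5.86 to 11.2, neuronal genes (3) from 0.74 to 3.93 and B cell genes (2) from 1.27 to 13.5. Of the 3 heart genes used, Nppa was listed at 0 in all 4 muscle groups and Mybpc3 had at most 0.024, so the sum of 24.6, 6.13, 17.5 and 15.6 was nearly all Myh6, itself an enriched entry. In whole tissue, fewer cells of a type and less RNA per cell cannot be told apart, and the part of these cells in the results below was not tested.

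The muscle label held against its markers. Ckm, the cytosolic creatine kinase that regenerates ATP from creatine phosphate, had 18611 (0 to 38779) in WT_AL, 31263 (12132 to 50393) in WT_DR, 20379.9 (0 to 54979) in KO_AL and 35401 (0 to 92951) in KO_DR. Its means were 2.39 in brain, 3.24 in liver and 86.5 in WAT, a muscle ratio of 305. Actn3, the α-actinin of fast fibre Z discs, had 4411 (563 to 8259.9) in WT_AL, 6574 (3259 to 9889.6) in WT_DR, 5039 (0 to 14147) in KO_AL and 9705 (0 to 26024) in KO_DR, a ratio of 285. Tnni2, the fast troponin I, had 7628 (1379.8 to 13877) in WT_AL, 12048 (5738 to 18358) in WT_DR, 8441 (0 to 19309.7) in KO_AL and 12342 (164 to 24520.0) in KO_DR, a ratio of 233. The intervals of each gene overlapped between all groups, and the DR groups had the higher values within each genotype. The log2 difference of Ckm was 0.13 (-2.72 to 2.98) for KO_AL against WT_AL, 0.75 (-1.01 to 2.51) for WT_DR against WT_AL, 0.18 (-2.28 to 2.64) for KO_DR against WT_DR and 0.80 (-2.53 to 4.12) for KO_DR against KO_AL, and none was called at the false discovery rate (FDR) of 10%. These intervals leave room for changes of several fold in either direction, so the missing calls do not show that Ckm was unchanged.

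A few genes carried much of the muscle transcriptome. The coding muscle-enriched entries held 49.7%, 56.6%, 46.5% and 51.6% of the summed coding FPKM in muscle, against 0.80% to 0.84% in brain, 0.14% to 0.18% in liver and 0.86% to 1.66% in WAT. The 10 highest of all coding genes in each group, enriched or not, held 32.4%, 40.5%, 30.1% and 36.3%. These need not be the genes ranked next, since in KO_DR the globin Hba-a1 (8347), which was not enriched, lay above Myh4 (7653). The ranking holds enriched entries only. By mean level the order was Mylpf (the fast regulatory light chain, 43223), Acta1 (skeletal α-actin, 41241), Ckm (26414), Atp2a1 (the fast calcium pump, 25999.5), Tnnt3 (fast troponin T, 13026), Aldoa (aldolase, 12598), Tnnc2 (fast troponin C, 10909), Tnni2 (10115), Myh4 (the type IIb myosin heavy chain, 7781) and Actn3 (6432). Myl1, Tpm1, Tpm2, Pvalb, Pygm, Eno3, Tcap, Mb, Pgam2 and Myoz1 followed, from 6314 down to 1882. Within each group the deposited intervals of neighbours in this order overlapped. The plot of level against tissue ratio sets these genes beside the others.

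**Figure D1:**
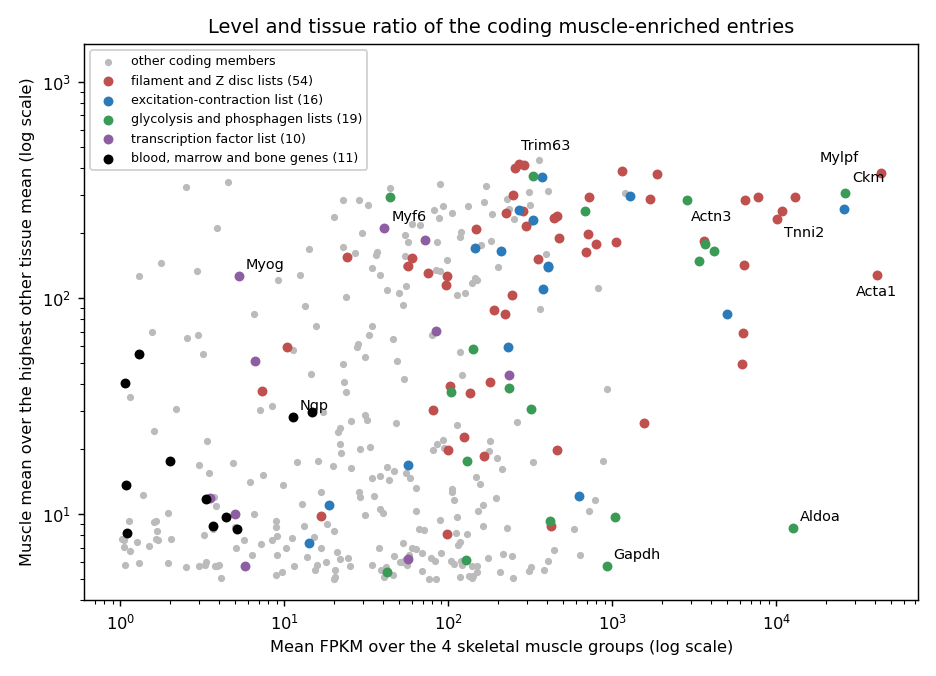
Each point is a protein coding entry; the x axis is its mean FPKM over the 4 skeletal muscle groups and the y axis the muscle mean over the highest other tissue mean, both on log scales, with colours for gene lists. Filament and Z disc genes reach the upper right, where Mylpf lies at 43223 FPKM and a ratio of 378, while Aldoa (8.61) and Gapdh (5.74) combine a high level with a low ratio.

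The ratio spanned a wide range. Of the coding entries, 255 had a ratio of at least 10, 151 of at least 50, 122 of at least 100 and 60 of at least 200. The 20 largest among single-gene entries were 2310016D03Rik (501), 2310065F04Rik (491), Gm28610 (438), Trim63 (433), Xirp2 (417), Actc1 (414), Gm21747 (402), Mylk4 (398), Neb (386), Mylpf (378), Myoz1 (377), Prr33 (373), Ampd1 (367), Hrc (363), Lrrc52 (344), 2310002L09Rik (339), Mybph (329), Atp1b4 (326), Klhl31 (324) and Rpl3l (312). Trim63, Xirp2, Actc1, Mylk4, Neb, Mylpf, Myoz1 and Mybph encode proteins of the sarcomere or its partners, Ampd1 an enzyme of adenine nucleotide turnover and Hrc a calcium binding protein of the sarcoplasmic reticulum. A low level in muscle did not preclude a high ratio, since 2310016D03Rik had a mean of 1.06 FPKM and Atp1b4 of 2.5. WAT was the closest other tissue for 211 coding entries, brain for 136 and liver for 37. At the limit, Svil (5.02), Gm15294 (5.03) and Cfl2 (5.03) lay just inside and Slc25a4 (4.98), Ptp4a2 (4.97) and Anapc5 (4.96) just outside.

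The second question was how far these genes kept their level over the 4 groups. For each entry a chi-square test of the 4 log2 values against their weighted mean was run on all entries with the deposited errors. The 4 pairwise comparisons used a Wald test of the log2 difference, each at an FDR of 10% over the whole table. Of 610 enriched entries tested, 33 varied (5.41%), against 3.44% of all 13525 entries, and 28 of the 33 were among the 376 coding ones. Some of the 33 did not stay enriched when a certain muscle group was left out, so variation was partly built in for them. Without such entries 25 were left. The range from the lowest to the highest group had a median of 0.96 on the log2 scale over the enriched entries, 0.88 over the coding ones and 0.72 over all other entries expressed in muscle. A range under 1, which is less than a 2-fold spread, was found for 54.8% and 69.5% of enriched and other entries. The order turned with the level. From 10 to 100 FPKM the medians were 0.93 and 0.63, and at 1000 FPKM or more they were 0.77 and 1.05. At that level 0 of 36 enriched entries varied and 12 of 83 others did. Of the 36, 27 were coding, with a median of 0.775, and the rest include copies of Gapdh. The others that varied include the globins Hba-a1, Hba-a2 and Hbb-bs, whose part in this order was not tested. WT_AL was the lowest group for 132 of the 376 coding entries and for 3708 of the 12915 entries that were not enriched, and WT_DR the highest for 126 and 2595. Over all 610 enriched entries the numbers were 278 and 211, which include the many copies of Gapdh described below.

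**Figure D2:**
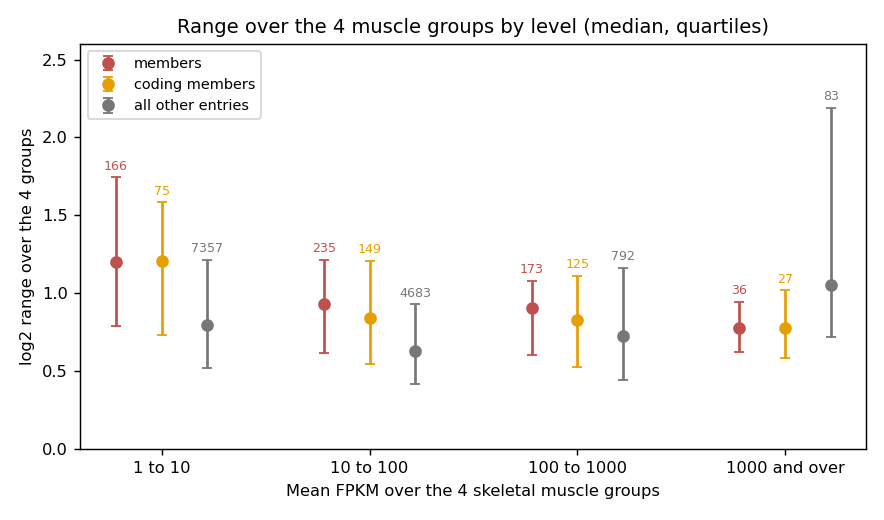
The x axis bins entries by mean FPKM over the 4 muscle groups and the y axis is the log2 range over the groups; points are medians and bars run from the lower to the upper quartile, for muscle-enriched and all other entries. The enriched entries lie higher in the 3 lower bins (0.93 against 0.63 from 10 to 100 FPKM) and lower at 1000 FPKM or more (0.77 against 1.05).

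Pairwise calls were few. For KO_AL against WT_AL, 7 of 608 enriched entries were higher and 3 lower, where 0.454% and 0.227% of all 14102 entries were. For WT_DR against WT_AL, 8 of 602 were higher and 6 lower, where 0.795% and 0.603% of 14089 were. For KO_DR against WT_DR, 6 of 611 were higher and 8 lower, where 0.884% and 1.35% of 14021 were. For KO_DR against KO_AL, 6 of 620 were higher and 6 lower, where 0.214% and 0.286% of 14008 were. Some of the entries were enriched only through the group where they were high. Among those that stayed enriched without any one muscle group, the calls in the same order numbered 6, 11, 11 and 7. The comparisons share groups, so their calls are not independent of each other.

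All 17 genes of the thick filament list were muscle enriched, and none of them varied over the groups at the FDR of 10%. Only 3.44% of all 13525 entries varied, so the absence of calls in a list this short does not show constancy. The same holds for the lists below. Their median ratio was 178 and their summed level 46608, 84420, 47120 and 75322. Myosin heavy chains were led by Myh4 at 8353, 9542, 5576 and 7653, followed by Myh1 (type IIx) at 642, 739.8, 1106 and 703 and Myh2 (type IIa) at 444, 305, 664 and 479.9. Myh4 was the highest of the heavy chains in every group. Myh7, the slow chain shared with the heart, had 123, 32.6, 84.8 and 83.6, lowest in WT_DR. The developmental chains differed, with 262, 405, 217 and 301 for Myh8, the perinatal form, and 7.02, 8.69, 6.98 and 6.38 for Myh3, the embryonic form. Mylpf had 26391 (0 to 55973) in WT_AL, 59815 (5051 to 114579) in WT_DR, 31434 (0 to 82676) in KO_AL and 55249.9 (0 to 131064) in KO_DR, and Myl1, the fast essential light chain, had 5912, 8864, 3875 and 6606. Mybpc2, the fast myosin binding protein C, had 1578, 2162, 1259 and 1784 and Mybpc1, the slow form, 637, 741, 820.4 and 572. The M band genes Myom1 and Myom2 had ratios of 151 and 249, and Myom2 was the steadiest of the list, at 227, 231, 213 and 225. Mylk2, the skeletal kinase of the regulatory light chain, had 938, 722, 722 and 510.3 and its relative Mylk4 295, 385, 145 and 199. The heavy chain genes are similar in sequence, so the split of reads between them is uncertain.

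The thin filament list had 15 of 16 genes enriched, with only Tpm3 (ratio 1.58) outside, and 2 that varied. Acta1 had 33235 (0 to 73099) in WT_AL, 51082 (15414 to 86750.2) in WT_DR, 35573 (2335 to 68809.9) in KO_AL and 45074 (0 to 113128) in KO_DR, with overlapping intervals. Actc1, the cardiac α-actin, was far lower at 92.7 (40.9 to 145) in WT_AL, 273 (158 to 389) in WT_DR, 227 (27.9 to 427) in KO_AL and 559 (108 to 1009) in KO_DR; the groups varied at the FDR of 10% and WT_AL was lowest, although none of the 4 pairwise differences was called. Reads shared between both actins make the Actc1 level uncertain. Lmod2, a leiomodin that elongates thin filaments, had 294 (159 to 429) in WT_AL, 64.4 (35.0 to 93.7) in WT_DR, 151 (62.3 to 239) in KO_AL and 78.3 (37.4 to 119) in KO_DR and also varied, with WT_AL highest and WT_DR lowest. The other members did not vary. Tnnt3 had 10652, 14779, 10984 and 15688, with the DR groups higher within each genotype. Tnnc2 had 11111, 13498, 8153 and 10875. Of the tropomyosins, which cover the myosin sites of actin, Tpm1 had 4577, 8318, 4447 and 7760.0. Tpm2 had 3620.0, 6771, 7507 and 6659, so that WT_AL was the lowest group. Neb, the giant ruler protein nebulin, had 1527, 1258, 831 and 975. Tmod4 (221, 371, 222 and 333) caps filament ends and had a ratio of 254, against 8.11 for Tmod1, which the brain also holds.

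Of the Z disc and titin list, 22 of 24 genes were enriched and 2 varied, Ankrd2 and Myoz2. Csrp3 (4.22) and Cryab (3.69) fell short of the ratio limit, and Ankrd23 was present only in a joined entry. Ankrd2, a titin-associated ankyrin protein that responds to stretch, had 169 (83.0 to 256) in WT_AL, 22.2 (7.4 to 37.1) in WT_DR, 131 (74.6 to 188) in KO_AL and 66.8 (36.5 to 97.1) in KO_DR. The WT_DR interval lay wholly below those of WT_AL and KO_AL. Myoz2, calsarcin-1 of slow fibres and heart, had 148 (89.2 to 207) in WT_AL, 33.6 (10.0 to 57.2) in WT_DR, 127 (52.4 to 201) in KO_AL and 85.8 (42.2 to 129) in KO_DR, with the same group lowest. Structural members were steadier. Ttn had 307, 250.4, 221 and 220.0, Des (desmin, which ties Z discs together) 1546, 1588, 1485 and 1640.0, Tcap (the titin cap) 4011, 3467, 3687 and 3436, Ldb3 926, 1134, 1026 and 1147 and Myoz1 1807, 2092, 1626 and 2001. Xirp2, a Xin repeat protein with the largest ratio of the list, had 392, 294, 229 and 170.2 and its relative Xirp1 75.5, 30.8, 81.6 and 39.1. Of the 22, 13 stayed within a 2-fold range over the groups.

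Excitation-contraction coupling genes were enriched in 16 of 19 cases. Atp2a1 had 27671, 32390.2, 20353 and 23584, and the second calcium pump Atp2a2, which other tissues also use, was not enriched (0.485). The calcium release channel Ryr1 had 357, 275, 208 and 234 and the voltage sensor Cacna1s 402, 377, 393 and 458, and neither varied. Casq1, the calcium store of fast fibres, had 574, 1863, 1237 and 1436, lowest in WT_AL, with a log2 difference of 1.70 (0.00 to 3.39) for WT_DR against WT_AL that was not called. Pvalb, the soluble calcium buffer parvalbumin, had 3618, 6019, 4293 and 6082, and brain held it too (mean 59.2). The list's 2 varying genes were both of the junction between membranes. Jsrp1, which binds Cacna1s and calsequestrin, had 156 (124 to 189) in WT_AL, 397 (249 to 544) in WT_DR, 400.1 (113 to 688) in KO_AL and 565 (202 to 927) in KO_DR; its WT_AL interval lay below that of WT_DR. Jph1, the junctophilin that spans the junction, had 55.2 (19.6 to 90.9) in WT_AL, 73.2 (61.3 to 85.1) in WT_DR, 48.7 (35.0 to 62.4) in KO_AL and 48.8 (42.0 to 55.6) in KO_DR, highest in WT_DR.

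In the neuromuscular junction and channel list 7 of 11 genes were enriched and none varied. Scn4a, the muscle sodium channel, had 114, 119, 94.2 and 94.7 in the larger of its 2 entries, and Clcn1, the chloride channel, 51.0, 66.2, 35.8 and 48.4. Among acetylcholine receptor subunits Chrna1 had 1.73, 2.46, 3.98 and 4.62 and Chrne, the adult subunit, 6.0, 17.1, 10.3 and 20.1, while Chrnd did not reach a mean of 1 FPKM and Musk (3.69) and Dok7 (0.664) did not reach the ratio. Colq was present only in a joined entry. Of the sarcolemma and dystrophin list, 6 of 14 were enriched, none varied and 5 stayed within a 2-fold range. Sgca, a sarcoglycan, had a ratio of 177, Cav3, the muscle caveolin, 158 and Trim72, a membrane repair protein, 196. Dmd itself had a ratio of 2.75, with brain closest, and Dag1 of 1.79.

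The muscle isozymes of energy supply were enriched and the enzymes that every tissue uses were mostly not. All 6 of the phosphagen, adenine nucleotide and oxygen list passed and none varied. Besides Ckm these were Ckmt2 (the mitochondrial creatine kinase, 1003, 565, 677 and 481), Ampd1 (AMP deaminase, 400.0, 383, 239.9 and 300.1), Adssl1 (adenylosuccinate synthase, 203, 348, 302 and 432), Ak1 (adenylate kinase, 364, 525, 383 and 386) and Mb (myoglobin, 4153, 2214, 4378 and 2679). Of the glycogen and glycolysis list 13 of 20 passed and none varied. Pygm, muscle glycogen phosphorylase, had 5105, 4538, 2969 and 3983 and a ratio of 166. The muscle isozymes Eno3 (2279.8, 4258, 3152 and 5023) and Pgam2 (1582, 3692, 2668 and 3541) had ratios of 177 and 284, against 8.61 for Aldoa and 9.69 for Pfkm. Tpi1 (3.66), Pkm (3.26), Pgk1 (1.78) and Ldha (1.45), which every tissue uses, were below the limit, and so was the glucose transporter Slc2a4 (2.57), which WAT shares. Muscle isoforms of respiratory chain subunits were enriched in 3 of 4 cases, none varying, with a ratio of 307 for Cox6a2 (1050.1, 1141, 1316 and 1249), 20.2 for Cox7a1 and 17.6 for Cox8b. Among members outside the lists, chosen after their values were seen, Pdk4, which turns fuel use from glucose towards fat, had 1526 (0 to 4633) in WT_AL, 335 (0 to 713) in WT_DR, 1043 (0 to 3073) in KO_AL and 248 (0 to 769.9) in KO_DR; its DR values were lower in both genotypes, but the intervals overlapped and no difference was called.

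Regulators were low in level. Of 16 muscle transcription factors, 10 were enriched, with a median of 23.7 FPKM among them, and all 10 stayed within a 2-fold range. Myf6 (MRF4), the main MyoD family member of adult fibres, had 26.8 (18.5 to 35.2) in WT_AL, 37.4 (27.7 to 47.1) in WT_DR, 52.0 (44.0 to 60.0) in KO_AL and 47.0 (32.6 to 61.4) in KO_DR, lowest in WT_AL. Myod1 had 5.64, 6.60, 6.43 and 8.0 and Myog 4.20, 6.16, 5.58 and 5.16, ratios of 51.1 and 126. Six4, a homeodomain protein, had 3.37 (2.00 to 4.74) in WT_AL, 3.92 (3.53 to 4.32) in WT_DR, 4.27 (3.70 to 4.85) in KO_AL and 2.53 (2.33 to 2.74) in KO_DR; it and Myf6 varied at the FDR of 10%. Vgll2, a cofactor of fibre type genes, had 77.1, 55.3, 98.4 and 56.0. Tbx15 had 73.9, 101, 78.2 and 85.3 and Smyd1, a methyltransferase needed for sarcomere assembly, 245, 262, 214 and 221. Mef2a (1.29), Mef2c (2.15) and Mef2d (1.24) were shared with the other tissues. Pax7, the factor of satellite cells, had 0.590, 0.527, 0.480 and 0.438, below 1 FPKM in every group.

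Protein turnover and chaperone genes were enriched in 21 of 22 cases, and Capn3 was present only in a joined entry. Trim63 (MuRF1), a ubiquitin ligase of the sarcomere that rises in atrophy, was the only one that varied. It had 860.2 (54.3 to 1666) in WT_AL, 143 (84.7 to 201) in WT_DR, 315 (92.3 to 537) in KO_AL and 111 (45.0 to 176) in KO_DR, highest in WT_AL. Fbxo32 (atrogin-1), the other well known atrophy ligase, had 196, 64.5, 147 and 45.9, with a log2 difference of -1.61 (-3.03 to -0.18) between WT_DR and WT_AL and -1.68 (-2.94 to -0.42) between KO_DR and KO_AL, neither called. Klhl38 (131, 51.5, 112 and 62.1), Hspb7 (345, 138, 382 and 188) and Asb2 (597, 302, 335 and 219) were also lower in DR within each genotype without a call. Klhl41 (169, 209, 184 and 172) and Klhl31 (39.9, 53.7, 41.4 and 41.8), Kelch proteins of the fibre, and Trim54 (327, 287, 287 and 332), which binds microtubules and Z discs, kept within a narrow range. Secreted factors were enriched in 3 of 7 cases without varying, with 40.7, 28.1, 26.2 and 34.0 for myostatin (Mstn), which limits muscle growth, 85.8, 47.6, 37.2 and 69.9 for Ostn and 7.98, 8.68, 6.61 and 5.57 for Il15.

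Fast and slow fibre genes are set side by side as lists, with no test between them. All 14 genes of the fast list were enriched and none varied. Each gene was centred on its own mean log2 FPKM, and the medians of the fast list were then -0.17, 0.31, -0.26 and 0.11. Of the slow list 9 of 12 were enriched, and all 9 had their lowest value in WT_DR. The centred medians were 0.22, -1.17, 0.61 and 0.35. Tnni1, the slow troponin I, had 107, 41.5, 132 and 121, Tnnt1 138, 52.6, 161 and 146, Tnnc1 92.1, 40.2, 140.3 and 137, Myl2 198, 107, 354 and 314 and Myl3 101, 64.2, 293 and 302. The median log2 difference of the 9 was -1.36 for WT_DR against WT_AL, where that of all entries tested was -0.06, and 1.54 for KO_DR against WT_DR, where it was 0.04. At the level of single genes, Ankrd2 and Myoz2 were called in the first of these comparisons and none in the second. The 3 slow genes below the ratio limit also had their lowest value in WT_DR, at 27.6 for Atp2a2, 31.1 for Csrp3 and 32.2 for Tpm3. The plot of both lists shows the 9 and 14 genes by group. Both lists overlap the filament, Z disc and calcium lists above, and several slow genes are heart genes too. The adipocyte, Schwann cell, smooth muscle, heart, endothelial, neuronal and B cell marker sums given above were also lowest in WT_DR. The liver sum was highest there, and the red blood cell, fibroblast and macrophage sums were lowest in other groups.

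**Figure D3:**
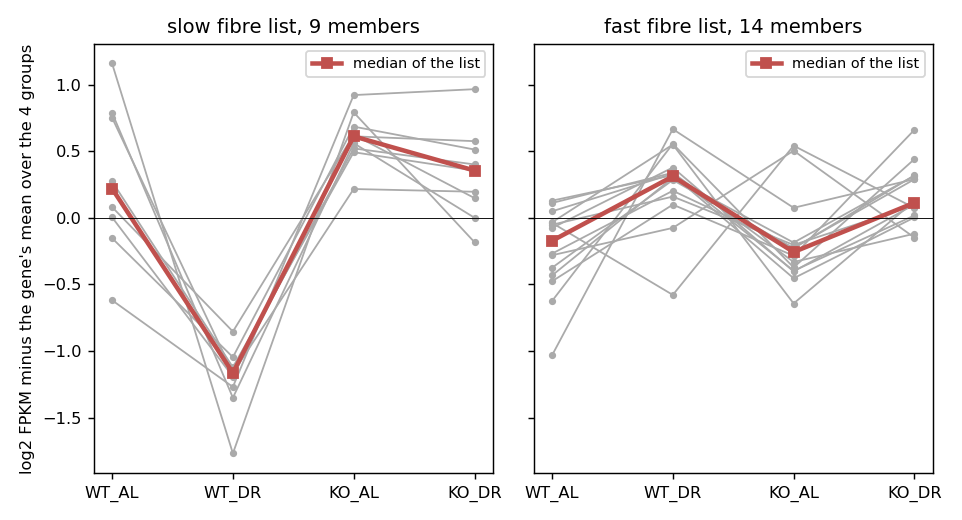
The x axis gives the 4 muscle groups and the y axis log2 FPKM minus the gene's own mean over them, for the 9 enriched slow fibre genes (left) and the 14 fast fibre genes (right); grey lines are genes and red squares the list median. Every slow gene is lowest in WT_DR, where the median is -1.17, and the fast medians stay between -0.26 and 0.31.

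Over all function lists 139 of 176 genes were enriched and 9 of the 139 varied, where 3.44% of all 13525 entries did. The remaining enriched entries were of several kinds. There were 138 pseudogenes, 69 small or structural RNAs, 62 long noncoding or other transcripts, 26 entries without a match in the annotation and 8 joined entries. Of the pseudogenes, 104 matched Gapdh or one of its copies at 83.6% to 100% identity over at least 80% of their length. Gapdh, the glycolytic enzyme, had 549, 865, 961 and 1313, and the copies summed to 20361 FPKM, which is 22.1 times its mean of 922. Gapdh and copies together gave 21284 in muscle against 3076 in brain, 3457 in liver and 2821 in WAT, a ratio of 6.16. How far reads of the less similar copies were told apart was not tested. Between near-identical copies single reads cannot be told apart, so the split is uncertain and the 104 entries cannot be counted as 104 separate genes. The same holds for Aldoa with Aldoart1 (352, 826, 477 and 666) and Aldoart2 (190.3, 272, 156 and 289), and for Fabp3, the fatty acid carrier of muscle (140.4, 146, 314 and 244), with Fabp3-ps1 (1077, 904, 2422 and 1943). Of the small RNAs 63 were listed at 0 in at least 1 muscle group and 54 at 0 in all 3 other tissues, which leaves them without a ratio. Their lengths are short and the libraries were poly(A) selected, so their FPKM are uncertain.

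Some enriched genes were neighbours on the chromosomes; the share for other genes was not computed, so nothing is read from the number. Within gaps of 100 kb, 61 of 385 coding genes formed 27 groups on GRCm38. The largest was the myosin heavy chain cluster at chr11:67078300-67371586, with Myh3, Myh2, Myh1, Myh4, Myh8 and Myh13. Hrc, Kcna7, Ntf5 and Gys1 lay at chr7:45335290-45456619, and Tnni2 beside Tnnt3 at chr7:142441808-142516009. Within the myosin cluster, the mean FPKM was 7.27 for Myh3, 473 for Myh2, 798 for Myh1, 7781 for Myh4, 296 for Myh8 and 34.2 for Myh13.

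Of the enriched genes, 11 known from blood, marrow and bone entered the set through KO_AL. They were picked out after their values were seen. Ngp and Camp, granule proteins of neutrophils, had 0.129, 1.15, 42.1 and 1.53 and 0, 1.000, 57.8 and 0.521. Bglap and Bglap2, the osteocalcins of bone, were listed at 0 in the other 3 groups and had 20.5 and 13.3 in KO_AL. Mpo, the myeloperoxidase of marrow cells, had 0.129, 0, 17.5 and 0.117, and Slc4a1, the anion exchanger of red blood cells, 0, 0.525, 13.3 and 0.952. Cd177, Ctsg, Fcnb, Hemgn and Kel had 4.23, 4.26, 4.27, 5.12 and 7.67 in KO_AL and at most 0.221 elsewhere. A gene that passes the mean of 1 FPKM through a single group had to differ between groups, so these differences are no finding about muscle. Of all 689 entries, 527 stayed enriched whichever muscle group was left out, 335 of them among the 386 coding ones.

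WT_DR against WT_AL asks what long-term restriction changed in WT muscle. Genes of the sarcomere and its ligase were among the 6 entries that fell. Odf3l2, an outer dense fibre-like protein, had 34.0 (14.3 to 53.7) in WT_AL, 3.49 (0.174 to 6.81) in WT_DR, 18.5 (5.06 to 32.0) in KO_AL and 13.2 (6.93 to 19.4) in KO_DR, a log2 difference of -3.28 (-4.86 to -1.71). Cep85l, a centrosomal protein, had 30.5 (18.0 to 43.0) in WT_AL, 3.49 (1.06 to 5.92) in WT_DR, 5.2 (2.04 to 8.36) in KO_AL and 5.64 (1.51 to 9.78) in KO_DR, a difference of -3.13 (-4.27 to -1.98); WT_AL alone was high, and without that group the gene did not reach the ratio of 5. The other 4 that fell were Ankrd2, with a difference of -2.93 (-4.12 to -1.74), Trim63 with -2.59 (-4.03 to -1.15), Lmod2 with -2.19 (-3.10 to -1.28) and Myoz2 with -2.14 (-3.28 to -1.0), from the values given above. Among the 8 that rose was Mss51, a muscle protein of mitochondria, with 10.3 (2.14 to 18.4) in WT_AL, 60.7 (37.0 to 84.4) in WT_DR, 25.6 (11.5 to 39.7) in KO_AL and 27.4 (13.2 to 41.7) in KO_DR and a difference of 2.56 (1.31 to 3.81). Its WT_DR interval lay above that of WT_AL. Jsrp1 rose by 1.34 (0.74 to 1.94). Smco1, a single-pass membrane protein, had 13.8 (8.89 to 18.6) in WT_AL, 33.0 (28.8 to 37.1) in WT_DR, 16.8 (13.9 to 19.6) in KO_AL and 17.1 (14.3 to 19.8) in KO_DR and rose by 1.26 (0.73 to 1.79), and Ptp4a3, a phosphatase, rose by 0.56 (0.22 to 0.90). The other 4 that rose were Gm3625, Gm7293, 2310047D07Rik and the small RNA Gm22505. Gm3625 and Gm7293 did not reach the ratio of 5 without WT_DR, so their rise was partly built in. The liver marker sum was high in WT_DR, at 2367 against 19.7, while the adipocyte sum was 360 against 1141 and the Schwann cell sum 15.3 against 63.4; their part in these differences was not tested.

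The same genes in the KO groups are given as values only, since the comparisons share groups. Trim63 had a log2 difference of -1.51 (-2.81 to -0.21) between KO_DR and KO_AL, Ankrd2 of -0.97 (-1.86 to -0.09), Lmod2 of -0.94 (-2.05 to 0.17), Myoz2 of -0.56 (-1.66 to 0.54), Odf3l2 of -0.49 (-1.72 to 0.73), Mss51 of 0.10 (-0.97 to 1.17) and Jsrp1 of 0.50 (-0.87 to 1.86). Cep85l had 0.12 (-1.23 to 1.46) and Smco1 0.02 (-0.31 to 0.35). None of these 9 differences was called. Whether diet acted differently in both genotypes was tested separately as an interaction, described below, where Cep85l and Smco1 were called and the first 7 genes were not.

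KO_AL against WT_AL asks about the genotype under ad libitum feeding. Of the 7 entries that rose, Myf6 did so by 0.96 (0.46 to 1.45) from the values given above, and its KO_AL interval lay above that of WT_AL. Ptp4a3 had 114 (87.9 to 141) in WT_AL, 168 (157 to 179) in WT_DR, 228 (202 to 254) in KO_AL and 211 (175 to 247) in KO_DR and rose by 1.00 (0.63 to 1.36). Ccnk, cyclin K, had 29.2, 45.8, 58.2 and 69.9 and rose by 0.99 (0.43 to 1.56), and Cand2, a regulator of cullin ligases in muscle, had 17.8, 21.8, 23.4 and 24.8 and rose by 0.40 (0.22 to 0.57). Ngp rose by 8.35 (4.63 to 12.07), beside a red blood cell marker sum of 11582 against 950. Gm22505 and Gm7293 made up the 7. The 3 that fell were Cep85l, with a log2 difference of -2.55 (-3.59 to -1.52), Gm3625 and the small RNA Gm24414. Cep85l, Ngp, Gm3625 and Gm7293 did not stay enriched when a certain muscle group was left out, and 6 calls were left without them. No gene of the filament, Z disc, calcium or energy lists was called.

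KO_DR against WT_DR asks about the genotype under restriction. Mettl21e, a lysine methyltransferase of muscle, had 1.67 (0 to 3.49) in WT_AL, 0.791 (0 to 1.62) in WT_DR, 6.8 (3.36 to 10.2) in KO_AL and 6.37 (3.35 to 9.40) in KO_DR and rose by 3.01 (1.38 to 4.64) on the log2 scale; both KO groups were high. Six2 (3.04, 2.48, 4.93 and 12.1) rose by 2.29 (0.87 to 3.72), and 3 small RNAs were also among the 6 that rose. Six2 reached the ratio of 5 only with its KO_DR value and not without that group, so its difference here was partly set by how the entries were chosen. Of the 8 that fell, Atp1b4, a muscle protein of the sodium pump β subunit family, had 2.34 (1.06 to 3.62) in WT_AL, 4.50 (2.70 to 6.30) in WT_DR, 2.12 (0.902 to 3.34) in KO_AL and 1.04 (0.394 to 1.70) in KO_DR and a difference of -2.11 (-3.15 to -1.06). Smco1 had a difference of -0.95 (-1.24 to -0.66). Ano5, an anoctamin of the fibre, had 14.8, 19.3, 11.8 and 10.8 and a difference of -0.85 (-1.32 to -0.37). The differences were -0.63 (-0.81 to -0.45) for Six4, -0.58 (-0.89 to -0.28) for Jph1 and -0.62 (-0.95 to -0.28) for Cfl2, the muscle cofilin that trims actin (74.2, 104, 89.9 and 67.6). Gm3625 and Ppp1r14c, an inhibitor of protein phosphatase 1 (18.1, 30.6, 17.6 and 20.7), were the others. Cfl2 and Gm3625 were highest in WT_DR and did not reach the ratio of 5 without that group. Their differences here were thus also partly set by how the entries were chosen.

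KO_DR against KO_AL asks what restriction changed in KO muscle. Of the 6 entries that fell, 3 were the marrow genes Camp, Cd177 and Ngp, with differences of -6.79 (-9.20 to -4.39), -5.78 (-8.68 to -2.88) and -4.78 (-7.11 to -2.45), all high in KO_AL alone. These 3 passed the mean of 1 FPKM or the ratio through KO_AL, so a difference from that group was built in. The small RNA Gm24182 (0, 8.27, 31.6 and 8.82), which also fell, did not stay enriched when a certain muscle group was left out. Its fall was thus partly built in too. Gm3625, which rose, did not stay enriched either, and without all such entries 7 calls were left. Six4 had a difference of -0.75 (-0.98 to -0.53), and 2 small RNAs made up the rest. The 6 that rose were 4 small RNAs, Gm3625 and Ppp1r14c, the last by 0.23 (0.11 to 0.35). Among the small RNAs, Mir7091 had 57.2 (21.9 to 92.6) in WT_AL, 101 (73.8 to 128) in WT_DR, 33.3 (13.1 to 53.6) in KO_AL and 157 (83.2 to 232) in KO_DR and a difference of 2.24 (1.15 to 3.33). Six4 was thus the only gene of the function lists called here.

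Some calls rest on very narrow deposited intervals. The median SD was 40.9%, 33.8%, 37.0% and 34.1% of the FPKM over the muscle entries of the 4 groups, and it was under 10% in 0.38% to 1.74% of them. When each SD was raised to at least the lower quartile of its group, 2 of the 10 calls for KO_AL against WT_AL remained (Cep85l and Ngp), 6 of 14 for WT_DR against WT_AL (Cep85l, Odf3l2, Mss51, Ankrd2, Trim63 and Lmod2), 5 of 14 for KO_DR against WT_DR (among them Mettl21e, Atp1b4, Gm22505 and Gm22092), 4 of 12 for KO_DR against KO_AL (Cd177, Ngp, Camp and Mir7091) and 14 of the 33 varying entries. All other calls of the 4 pairwise comparisons were lost. These included every call of Myf6, Ccnk, Cand2, Ptp4a3, Jsrp1, Myoz2, Smco1, Jph1, Cfl2, Ano5, Six4, Six2, Ppp1r14c, Gm3625, Gm7293 and 2310047D07Rik, and those of Gm22505 outside KO_DR against WT_DR.

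**Figure D4:**
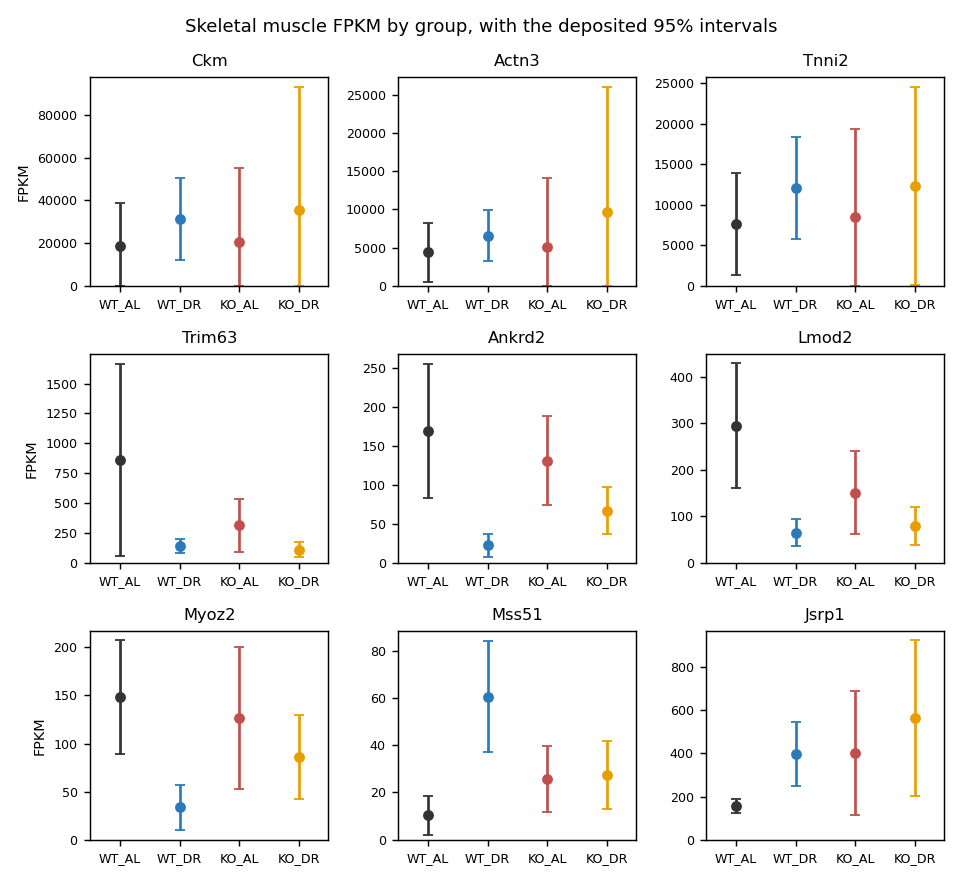
Each panel plots the FPKM of a gene in the 4 muscle groups, given on the x axis, as points with the deposited 95% intervals as bars; y axes start at 0 and differ between panels. Ckm, Actn3 and Tnni2 overlap throughout, Trim63, Ankrd2, Lmod2 and Myoz2 are highest in WT_AL and low in WT_DR, and Mss51 is highest in WT_DR at 60.7.

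The genotype by diet interaction, the log2 difference of KO_DR from WT_DR less that of KO_AL from WT_AL, was called for 3 of 610 enriched entries, against 0.371% of all 14547 entries tested. Cep85l had 3.25 (1.48 to 5.01), Smco1 -1.24 (-1.86 to -0.61) and Ngp -7.94 (-11.92 to -3.95). For Cep85l WT_AL was the group that stood apart, for Smco1 WT_DR and for Ngp KO_AL. Cep85l and Ngp were enriched only through the group that stood apart, so a difference was built in for them. Without such entries Smco1 was the 1 call, and with the SD raised as above only Ngp was called. A missing call does not show that diet had the same effect in both genotypes.

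Traces of the muscle genes in other tissues also differed by group. Of the 386 coding entries, 364 to 376 reached 1 FPKM in the muscle groups, 148 to 165 in brain and 86 to 109 in liver. In WAT the numbers were 142, 157, 220 and 189. The sum of the 5 fibre markers Ckm, Actn3, Tnni2, Acta1 and Mylpf was 522, 342, 919 and 568 in WAT, 2.99, 9.69, 36.8 and 6.61 in brain and 2.38, 9.73, 69 and 26.6 in liver, with KO_AL highest in all 3. In WT_AL WAT, Acta1 alone had 507 of the sum.

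**Figure D5:**
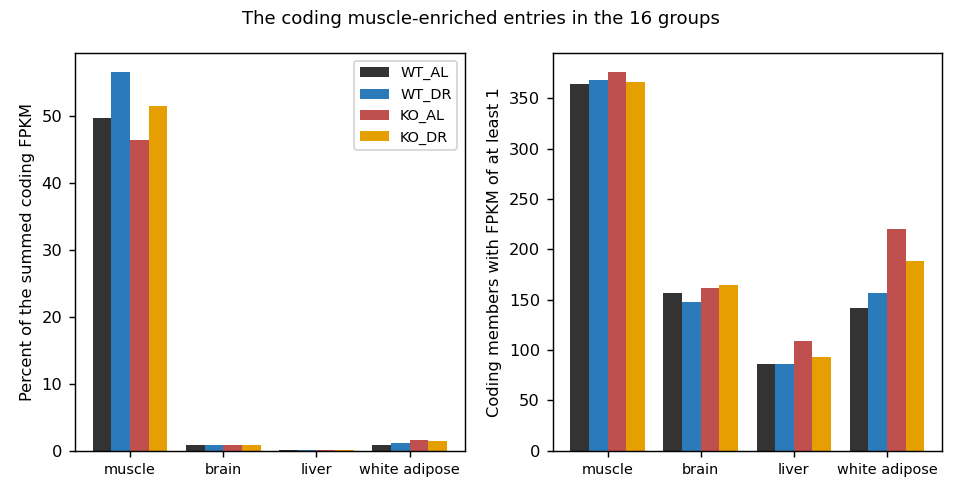
Bars show, for the 386 coding muscle-enriched entries in each tissue and group, the percent of all summed coding FPKM they hold (left) and how many reach 1 FPKM (right). They hold 46.5% to 56.6% in muscle and at most 1.66% elsewhere, and in WAT the number above 1 FPKM is highest in KO_AL, at 220.

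The difference between KO_AL and WT_AL was compared between WAT and muscle. It was called as larger in WAT for 13 of 340 enriched entries tested, against 0.294% of all 13247 entries in either direction, and all 13 were coding. An entry was tested only when WT_AL or KO_AL reached 1 FPKM in each tissue. Genes below 1 FPKM in WT_AL WAT, such as Myh4, Hrc and Pvalb, passed only through KO_AL, so a difference was partly built in. The counts and the median that follow share this limit. Without the filter 14 enriched entries were called. The median difference between the tissues was 0.25 over the 340 and -0.02 over all entries, and 203 of the 340 were larger in WAT. Myh4 was 0.070 (0 to 0.17) in WT_AL WAT and 55.0 (0 to 137) in KO_AL WAT, against 8353 and 5576 in muscle, a difference between tissues of 10.20 (6.18 to 14.23) on the log2 scale. Hrc was 0.062 (0.019 to 0.11) and 3.22 (1.67 to 4.78) in WAT, a difference of 6.50 (4.71 to 8.29). Pvalb was 0.91 (0 to 2.09) and 50.1 (7.83 to 92.4) in WAT, a difference of 5.53 (2.74 to 8.32). Ckmt2, Myoz1, Mylk2, Xirp2, Tnni2, Mybpc2, Asb5, Rbm24, Pdlim3 and Cd24a were the others. Even in KO_AL, the WAT value of the first 10 by size of difference was between 0.70% and 1.25% of that in muscle, and it was 9.05% for Rbm24, 13.4% for Pdlim3 and 23.6% for Cd24a. The WT_DR and KO_DR values of Myh4 in WAT were 20.6 and 30.3, so WT_AL WAT stood low for this gene. This did not hold for all. Each called gene was highest in KO_AL WAT, and Hrc had only 0.194 in WT_DR WAT and 0.633 in KO_DR WAT. Pvalb had 7.53 and 13.3 in the same 2 groups. For Cd24a, WT_DR WAT (3.76) lay below WT_AL WAT (4.32). WT_AL WAT and WT_DR WAT have 2 libraries each. The tissue rule used the WAT means, which holds these values down, and the amount of muscle in each fat sample was not measured.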

How the data were processed

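RNA of brain, skeletal muscle, liver and inguinal WAT was poly(A) selected and sequenced as single-end reads on an Ion Proton instrument. The authors trimmed the reads (cutadapt 1.5, sickle), mapped them to GRCm38 with BBmap in repeated rounds and ran Cuffdiff 2.2.1 with multi-read correction. The deposited FPKM table, with 95% confidence bounds and a status, holds 1 value per entry for each of 16 groups. Of 42349 entries, 873 join several genes. Single libraries have no values in it, which leaves their depth unknown and makes the authors' interval the only measure of precision. Groups follow the sample labels, and where nothing says otherwise libraries of a group may share sources of variation that p-values do not cover.

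The SD of a value was its upper bound minus the FPKM, divided by 2. Log2 ratios were tested with a two-sided Wald test (delta-method error, normal reference) on entries above 0 in both groups with at least 1 FPKM in either, variation over 4 groups with a chi-square test, each with Benjamini-Hochberg adjustment over the table (FDR 10%). Intervals of log2 differences are 95% Wald intervals. The Wald test of KO_AL against WT_AL and the chi-square test were also tried on simulated data, with large errors capped. Of 200 entries given a 4-fold change in KO_AL muscle, the Wald test called 57 and the chi-square test 93. With a 16-fold change they called 167 and 170. A missing call thus does not show constancy. Gene positions and classes are those of the GENCODE annotation of GRCm38, promoters those of RefSeq (GRCm38.p6). Pseudogenes were matched with blastn 2.17.0 at a coverage of at least 80%. Python 3.11.15, pandas 2.3.3, numpy 2.4.6, scipy 1.17.1 and matplotlib 3.10.9 were used.

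The genes named are Ckm, Actn3 and Tnni2, the 20 single-gene entries of largest ratio, the 20 of highest level, the genes of the function and marker lists, up to 5 called entries per direction and comparison, and the 3 entries on either side of the ratio limit. Any other gene was picked with its values in view, which the text says. The enriched set and the lists were chosen with earlier results of these data known. Alternatives tried were other ratio limits, level filters, a pseudocount of 1, an FDR of 5%, centring, smaller and larger SDs, and leaving out groups, joined entries or noncoding entries. Results for some genes on the lists are not reported here.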

Additional observations from a re-analysis of the deposited data

Results flagged for a closer look

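The effect of diet differed between the genotypes for 3 enriched entries, by a test of the difference itself. For Cep85l the interaction was 3.25 on the log2 scale, for Smco1 -1.24 and for Ngp -7.94. The group values behind them were 30.5, 3.49, 5.2 and 5.64 for Cep85l, 13.8, 33.0, 16.8 and 17.1 for Smco1 and 0.129, 1.15, 42.1 and 1.53 for Ngp, in FPKM and in the order WT_AL, WT_DR, KO_AL and KO_DR. Cep85l and Ngp are 2 of the 162 entries that did not stay enriched whichever muscle group was left out, so a difference between groups was built in for both. Smco1 is one of the 527 that did, and with each SD at or above the lower quartile of its group its call was lost, as was that of Cep85l.

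The difference between KO_AL and WT_AL was called as different between WAT and muscle for 13 enriched genes, all of them larger in WAT. Those below 1 FPKM in WT_AL WAT were tested only through KO_AL, so a difference was partly built in for them. Fibre markers summed to 522 in WT_AL WAT and 919 in KO_AL WAT. Acta1 alone made up 507 of the WT_AL sum and was lower in KO_AL WAT, at 337. Ckm, Actn3, Tnni2 and Mylpf were each higher in KO_AL WAT, with Mylpf at 308 against 10.1 in WT_AL WAT. The sums thus understate how far these other markers differed. The part of muscle tissue in the fat samples was not tested.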

How the results depend on the processing

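The number of enriched entries, 689, followed the rule closely: it was 1392 with a ratio of at least 2, 405 with at least 10, 1297 without the filter on the muscle mean and 457 with a pseudocount of 1. The numbers of calls among them depended most on the error. With the SD divided by the square root of the number of libraries they were 32 for KO_AL against WT_AL, 64 for WT_DR against WT_AL, 78 for KO_DR against WT_DR, 36 for KO_DR against KO_AL, 147 varying, 21 with an interaction and 51 for WAT against muscle. With each SD at or above the lower quartile of its group, an alternative chosen after seeing the data, the first 6 of these were 2, 6, 5, 4, 14 and 1. With a ratio limit of 2 the calls were 19 for KO_AL against WT_AL, 34 for KO_DR against WT_DR, 21 for KO_DR against KO_AL, 62 varying and 6 with an interaction, and with a limit of 10 they were 5, 9 and 7 for the first 3 of these. Among entries that stay enriched without any one muscle group, also chosen after seeing the data, there were 6 calls for KO_AL against WT_AL, 7 for KO_DR against KO_AL and 1 interaction. Coding entries alone gave 6 for KO_DR against KO_AL, a pseudocount of 1 gave 5 interactions, an FDR of 5% gave 6 for WAT against muscle, and without WT_DR 20 entries varied; the first and last of these 4 were chosen after seeing the data. Values of single genes were rerun only for up to 5 called entries per direction and comparison and for Ckm, Actn3 and Tnni2. Centred on the median of all tested entries, the uncalled difference of Tnni2 between KO_DR and WT_DR went from 0.035 to -0.004. No other value rerun changed sign. Other named genes were not rerun, and the cause of the shifts was not tested beyond what each alternative changes. No paired analysis was possible because the table holds 1 pooled value per group, and for the same reason no library could be left out.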

Other observations

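Some enriched genes that no list holds had muscle ratios as high as those of the filament genes. Chosen after their values were seen, they include Rpl3l, a muscle paralogue of a ribosomal protein, with 314, 410.3, 395 and 510.0, Apobec2, a muscle member of the deaminase family, with 324, 418, 453 and 378 and a ratio of 160.3, Murc, a cavin of the fibre membrane, with 146, 123, 124 and 134 and a ratio of 268, and Perm1, a regulator of mitochondrial genes, with 56.3, 54.2, 67.6 and 48.6 and a ratio of 182. None of them varied over the groups at the FDR of 10%. Hfe2 (hemojuvelin), an iron regulator shared with the liver, had 325, 448, 438 and 552 and a ratio of 6.8. Prkag3, the fast fibre subunit of AMP-activated kinase, had 25.1, 62.2, 30.2 and 51.1, with the DR value higher in each genotype, and Ucp3, a mitochondrial carrier, had 113, 96.6, 178 and 81.8; neither varied.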
